A study of Homo sapiens with 4 samples.

Results

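In the chromatin of OVCAR5 cells, 848 of the 27281 FOXK2 peaks listed for replicate 2 lay close together in 192 dense clusters. The clusters were chosen by their spacing, from the replicate 2 list: neighbouring peaks whose centres lay at most 12.5 kb apart were joined, and joined groups of 4 or more peaks were kept. The remaining 26433 peaks of that list served as the comparison. Replicate 1, with 12471 peaks, took no part in the choice, and a cluster peak was called supported where it shared 1 bp or more with a replicate 1 peak. OVCAR5 is an established ovarian cancer cell line, labelled high grade serous and used at passage 4 to 6, and crosslinked chromatin was immunoprecipitated with an antibody to FOXK2 in 2 biological replicates. Both replicates were of the same single condition, with no treatment named in the labels, so clusters could be compared between replicates and with other peaks but not between conditions. The input libraries were not used here, and no signal over input was computed.

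FOXK2 is a forkhead transcription factor, a protein that recognises DNA through a winged-helix domain and is best known for binding TGTTTAC and close relatives of it. FOXK2 has been studied as a repressor of autophagy genes, as a partner of corepressor complexes and as a regulator of glucose metabolism. Peaks of a transcription factor that lie close together often fall in the introns of 1 gene, around its promoter and distal elements, or across several neighbouring promoters.

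The cluster at YTHDC1, which encodes a nuclear reader of N6-methyladenosine in RNA, was the only one of the 192 in which every peak held TGTTTAC within 100 bp of its centre. Of its 4 peaks at chr4:68344576-68368131 (hg38), numbers 1, 2 and 4 are shown as the 121 bases around each centre, 5′ to 3′ on the + strand of the reference, with TGTTTAC in capitals (read as GTAAACA where it is on the opposite strand), as is the AP-1 site TGACTCA. The 4 peaks lay in an intron, at the promoter and at 2 intergenic positions upstream.
YTHDC1 peak 1 (chr4:68344644-68344764, + strand): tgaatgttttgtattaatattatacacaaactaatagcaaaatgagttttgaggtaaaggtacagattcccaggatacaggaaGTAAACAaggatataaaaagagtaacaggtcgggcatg
YTHDC1 peak 2 (chr4:68350032-68350152, + strand): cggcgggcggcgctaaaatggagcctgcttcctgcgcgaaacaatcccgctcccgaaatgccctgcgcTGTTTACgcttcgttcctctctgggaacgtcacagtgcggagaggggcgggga
YTHDC1 peak 4 (chr4:68367943-68368063, + strand): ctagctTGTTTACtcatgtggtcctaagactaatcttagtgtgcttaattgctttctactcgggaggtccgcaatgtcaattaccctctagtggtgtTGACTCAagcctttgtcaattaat

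All 4 YTHDC1 peaks were supported. Their replicate 2 scores were 10.4, 35.7, 33.8 and 9.67 in genome order, and the scores of their replicate 1 partners were 5.47, 19.6, 18.7 and 6.23. The peak score is the authors' HOMER value, which grows with the tags at a peak and is scaled within each list, so scores were not compared between replicates. The promoter peak and its upstream neighbour were the strong pair in both replicates, at percentiles 98.7 and 98.5 of the replicate 2 scores and 97.6 and 97.2 of the replicate 1 scores.

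The cluster with the most peaks was at FAT1, an atypical cadherin, with 9 peaks over 58640 bp at chr4:186651149-186709788, all inside the gene. It is shown because it had more peaks than any other cluster but little support: replicate 1 overlapped only the last peak. The 4 of its 9 peaks that held TGTTTAC are given below, again as 121 bases of hg38 with the heptamer in capitals. Peaks 1 and 7 were intronic, and peaks 8 and 9 were exonic.
FAT1 peak 1 (chr4:186651217-186651337, + strand): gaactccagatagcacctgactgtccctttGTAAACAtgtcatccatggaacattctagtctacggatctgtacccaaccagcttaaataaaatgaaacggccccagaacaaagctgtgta
FAT1 peak 7 (chr4:186696309-186696429, + strand): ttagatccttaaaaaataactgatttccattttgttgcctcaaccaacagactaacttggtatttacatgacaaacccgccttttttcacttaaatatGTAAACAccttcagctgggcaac
FAT1 peak 8 (chr4:186708674-186708794, + strand): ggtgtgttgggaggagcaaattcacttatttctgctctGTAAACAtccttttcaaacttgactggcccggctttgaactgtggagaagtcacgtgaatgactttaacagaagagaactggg
FAT1 peak 9 (chr4:186709600-186709720, + strand): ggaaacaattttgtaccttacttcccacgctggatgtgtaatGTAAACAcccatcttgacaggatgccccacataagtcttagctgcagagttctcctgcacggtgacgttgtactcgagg

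FAT1 scores in replicate 2 ran from 3.72 to 11, and the median score percentile of its peaks was 26.7. The single supported peak, number 9, had the highest score of the cluster (11, percentile 76.0) and a replicate 1 score of 6.98 (percentile 64.0). The other 8 peaks, with scores of 3.72 to 6.25, had no partner in replicate 1. No FAT1 peak lay at the promoter, and the nearest was 14173 bp from the TSS named in the files.

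The cluster called HCG27, after a long noncoding RNA, lay in the HLA region at chr6:31178715-31216526. It had TGTTTAC in 4 of 6 peaks, shown next in the same form. GENCODE places a transcript start of POU5F1, a pluripotency factor, inside this span, but the files assign the peaks to HCG27 and PSORS1C3.
HCG27 peak 3 (chr6:31197871-31197991, + strand): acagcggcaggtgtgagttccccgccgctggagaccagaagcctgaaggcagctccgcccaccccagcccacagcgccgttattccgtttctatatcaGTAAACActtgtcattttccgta
HCG27 peak 4 (chr6:31203415-31203535, + strand): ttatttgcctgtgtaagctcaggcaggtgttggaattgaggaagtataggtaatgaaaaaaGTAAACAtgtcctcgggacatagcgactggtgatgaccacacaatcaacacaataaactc
HCG27 peak 5 (chr6:31211626-31211746, + strand): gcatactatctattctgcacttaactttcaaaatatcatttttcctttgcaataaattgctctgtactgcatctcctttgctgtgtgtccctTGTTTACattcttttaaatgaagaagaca
HCG27 peak 6 (chr6:31216338-31216458, + strand): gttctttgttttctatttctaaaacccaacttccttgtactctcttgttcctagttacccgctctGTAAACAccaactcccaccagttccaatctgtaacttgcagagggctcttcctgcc

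HCG27 peak 4 scored 17.5 in replicate 2 and 8.3 in replicate 1 and was the strong peak of this cluster. Peaks 3 and 6 were also supported, with scores of 5.95 and 4.02 in replicate 2 and of 4.15 each in replicate 1, which were low in both lists. Peak 5 held the heptamer and had no replicate 1 partner, as was the case for 3 of the 4 FAT1 peaks shown. The heptamer was thus present in weak and unsupported peaks of these clusters as well as in strong ones.

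Most clusters were of the smallest size that the choice allowed: 133 had 4 peaks, 45 had 5, 10 had 6, 2 had 7, and 1 each had 8 and 9. Spans ran from 7418 to 58640 bp with a median of 22390 bp. The 656 gaps between neighbouring centres had a median of 7010 bp, and 41 of them were at most 1000 bp while 140 were over 10000 bp. The smallest of these gaps was 530 bp, and the joining rule allowed none over 12.5 kb. The gaps therefore describe spacing within these limits only. Whether peaks closer together could have appeared in the list was not tested. Just inside the distance limit, the largest gap in a cluster was 12468 bp. Just outside it, the nearest next peak lay 12577 bp from a cluster. A further 570 groups of 3 peaks, with a median span of 13214 bp against 19705 bp for groups of 4, fell just short of the size limit. These values were used in the choice of the clusters and are given as a description.

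**Figure D1:**
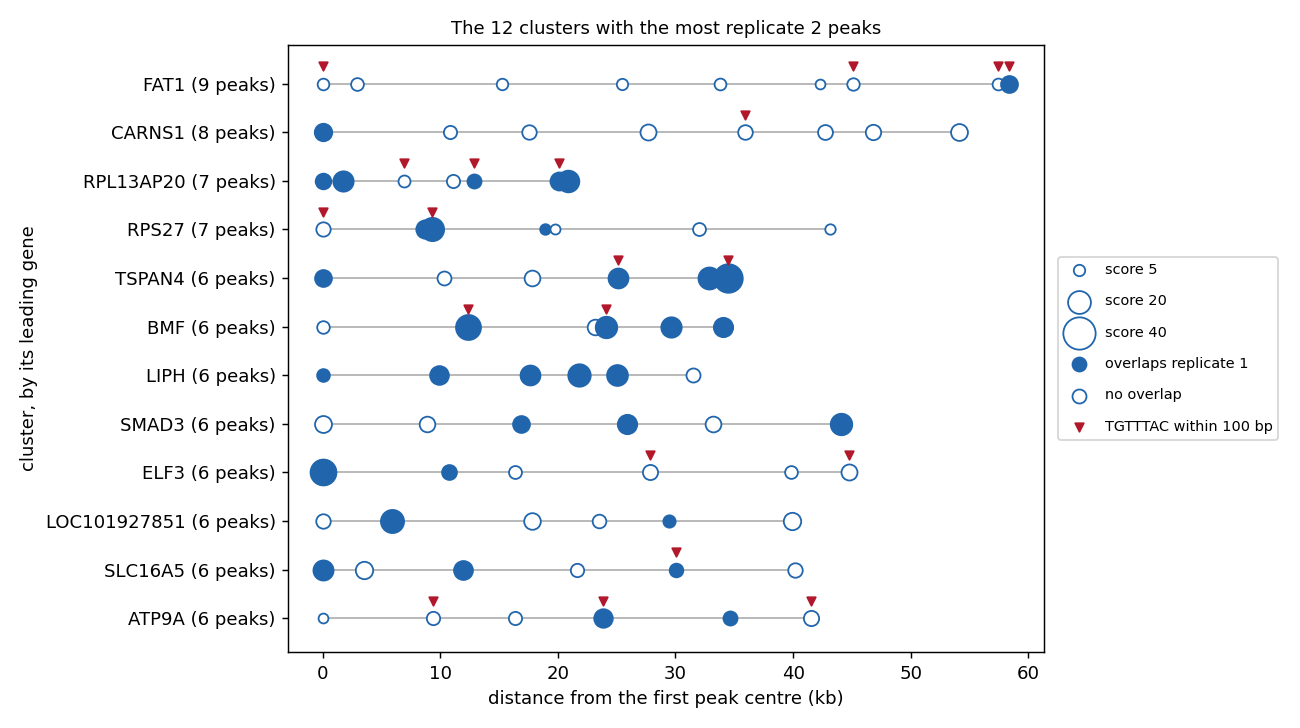
Peaks of the 12 clusters with the most replicate 2 peaks, by distance from the first peak centre in kb. Circle area is the replicate 2 score, filled circles overlap a replicate 1 peak, and triangles mark TGTTTAC within 100 bp of the centre. Of the 10 clusters with 6 peaks, the 8 with the highest summed scores are shown, which leaves out HCG27 and AFDN. FAT1 has 9 peaks, of which 1 is filled, and LIPH has 6, of which 5 are filled.

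The largest clusters differed in what they covered. CARNS1 (8 peaks, chr11:67374215-67428559) ran across a gene-dense stretch whose peaks were assigned to CLCF1, RAD9A, PPP1CA, CARNS1 and RPS6KB2, which encode a cytokine, a DNA damage checkpoint protein, a catalytic subunit of protein phosphatase 1, carnosine synthase and a ribosomal S6 kinase. Of its peaks, 4 were at promoters, and scores were even, from 6.69 to 11.7. Only the CLCF1 promoter peak was supported, with a score of 11.7 in replicate 2 and 6.98 in replicate 1.

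RPS27 (7 peaks, chr1:153958528-154001912) was also a run of promoters. Its peaks were assigned to CRTC2, a coactivator of CREB, SLC39A1, a zinc transporter, CREB3L4, a membrane-bound transcription factor, JTB, and RPS27, a ribosomal protein, and 5 of the 7 were at promoters. The SLC39A1 and CREB3L4 promoter peaks, 600 bp apart, scored 12.9 and 20.7 in replicate 2 and 7.17 and 8.87 in replicate 1. A JTB 5′ UTR peak was supported too, at scores of 4.31 and 3.96. The other 4 peaks had no partner.

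TSPAN4 (6 peaks, chr11:809714-844430) held the promoters of RPLP2, a ribosomal protein, CRACR2B, and TSPAN4, a tetraspanin, and intronic peaks of PNPLA2, the adipose triglyceride lipase, and of CD151, another tetraspanin. Both TSPAN4 promoter peaks were supported, with scores of 18.6 and 31.2 in replicate 2 and 11.9 and 15.5 in replicate 1. The RPLP2 and CD151 peaks were supported at lower scores, 10.9 and 15.2 in replicate 2, and the PNPLA2 and CRACR2B peaks, with the lowest scores of the cluster at 7.44 and 9.52, were not.

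Other large clusters belonged to 1 gene. SMAD3, a mediator of TGF-beta signalling, had 6 peaks at chr15:67065392-67109733, of which 1 was at its promoter and 5 were intronic. The SMAD3 promoter peak scored 11 and was not supported, while 3 intronic peaks, at 10.9, 14.4 and 17.7, were supported with replicate 1 scores of 8.49, 9.05 and 8.87. None of the 6 held TGTTTAC, and 1 held the AP-1 site.

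ATP9A, of the P4 family of lipid flippases, had 6 intronic peaks at chr20:51726416-51768188. TGTTTAC was in 3 of them and the AP-1 site in 3, with both in the strongest peak, which scored 13.2 in replicate 2 and 7.73 in replicate 1. ELF3, an epithelial ETS factor, had 6 intergenic peaks at chr1:202018421-202063464, all on 1 side of the gene and 7987 to 52774 bp from its TSS. The ELF3 peak nearest to the gene was the strong one, with 25.7 in replicate 2 and 10.9 in replicate 1, and the other 5 scored 6.25 to 9.82. SLC16A5, a member of the monocarboxylate transporter family, had 6 peaks with ARMC7 and NT5C at chr17:75084193-75124614. Supported SLC16A5 peaks lay at -3406 bp from the TSS, where a minus sign means upstream, and in an intron, at scores of 15.5 and 13.7, while the promoter peak between them, at 11.6, was not supported.

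Near the end of the long arm of chromosome 1, 3 clusters lay in a row within 478287 bp (chr1:234606040-235084326), the only run of 3 clusters less than 500000 bp apart. They were IRF2BP2, a transcriptional corepressor gene, LOC101927851 and LINC01348, with 16 peaks between them, of which 7 were supported. LOC101927851 had the strongest of these, at 20.5 in replicate 2 and 13.4 in replicate 1. IRF2BP2 and LINC01348 were named after their values were seen, as was AFDN, the gene of the junction protein afadin, whose 6 peaks at chr6:167832720-167857313 scored 6.1 to 10.1 with none supported. Of all 192 clusters, 37 fell in 18 such runs of 2 or 3.

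Replicate 1 had a partner for 330 of the 848 cluster peaks (38.9%, Wilson 95% interval 35.7% to 42.2%), against 34.2% of all replicate 2 peaks and 34.1% (33.5% to 34.7%) of the peaks outside clusters. Clusters were ahead by 4.82 percentage points (a two-sided Fisher's exact test, p = 0.0041, adjusted p = 0.0082 over 4 tests, odds ratio 1.23). Cluster peaks also had higher scores, with a median of 8.26 against 7.29 outside. At equal score decile the difference was -0.83 points (p = 0.56, stratified test), and with only the first peak of each cluster it was -0.24 points (Fisher's exact test, p = 1.0). Support was therefore not shown to be higher in clusters beyond what went with the score. The Fisher test takes peaks as independent, and those of 1 cluster share a locus.

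**Figure D2:**
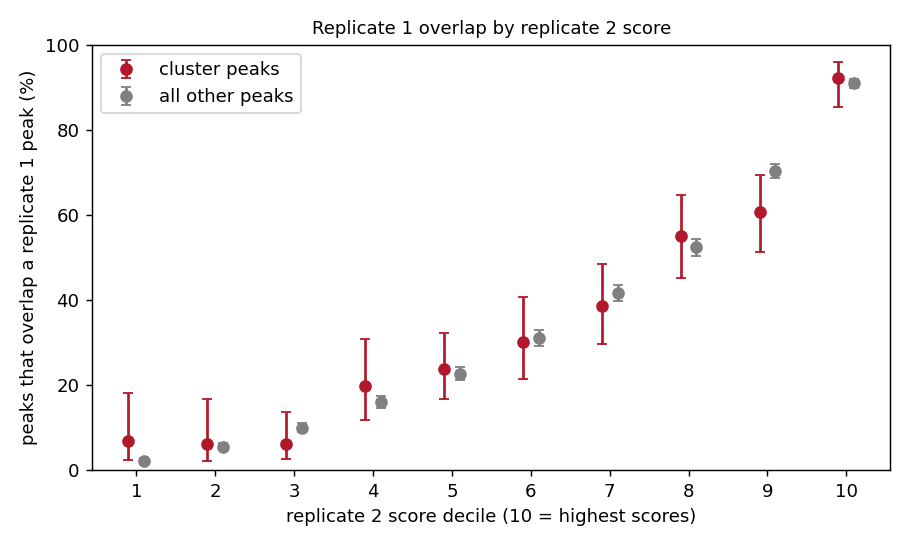
Share of replicate 2 peaks that overlap a replicate 1 peak, in percent, by decile of the replicate 2 score, for cluster peaks and all other peaks. Bars are Wilson 95% intervals. The shares are 6.82% and 2.25% in the lowest decile and 92.2% and 91.0% in the highest, and the cluster share is level over the lowest 3 deciles and below the other in the ninth, at 60.7% against 70.3%.

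In the highest score decile, 95 of 103 cluster peaks were supported (92.2%, 85.4% to 96.0%), against 91.0% outside clusters. In the lowest decile 3 of 44 were (6.82%, 2.35% to 18.2%), against 2.25%. The decile below the highest went the other way, with 65 of 107 cluster peaks supported (60.7%, 51.3% to 69.5%) against 70.3% outside. The interval of the cluster peaks missed the outside share in that decile, from below, and narrowly in the lowest decile, from above. Supported cluster peaks had a median replicate 2 score of 11.8, and those without support 6.69. Within replicate 1, the partners of cluster peaks stood at a median percentile of 66.1 and those of other peaks at 59.7. This median was 59.7 in clusters of 4 and 72.8 in larger clusters. Outside clusters it was 57.3 for lone peaks, 64.0 for peaks in pairs and 57.3 in groups of 3.

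The strongest peak of each cluster carried much of the support. It was supported in 135 of 192 clusters (70.3%, 63.5% to 76.3%), against 195 of the other 656 cluster peaks (29.7%, 26.4% to 33.3%). Within a cluster, the highest score was 1.14 to 16.9 times the lowest, with a median of 2.31. This split was made by score, with which support goes, and it is a description.

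Counted per cluster, 27 clusters had no supported peak, 59 had 1, 61 had 2, 33 had 3, 10 had 4 and 2 had 5. All peaks were supported in 7 clusters: FOS, TMEM45B, YTHDC1, RALGDS, TCF7L2, TCP11L2 and CYR61. Replicate 1 placed 4 or more peaks within the span of 14 of the 192 clusters. Most clusters thus met the size limit in replicate 2, whose list is the longer one, but not in replicate 1.

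**Figure D3:**
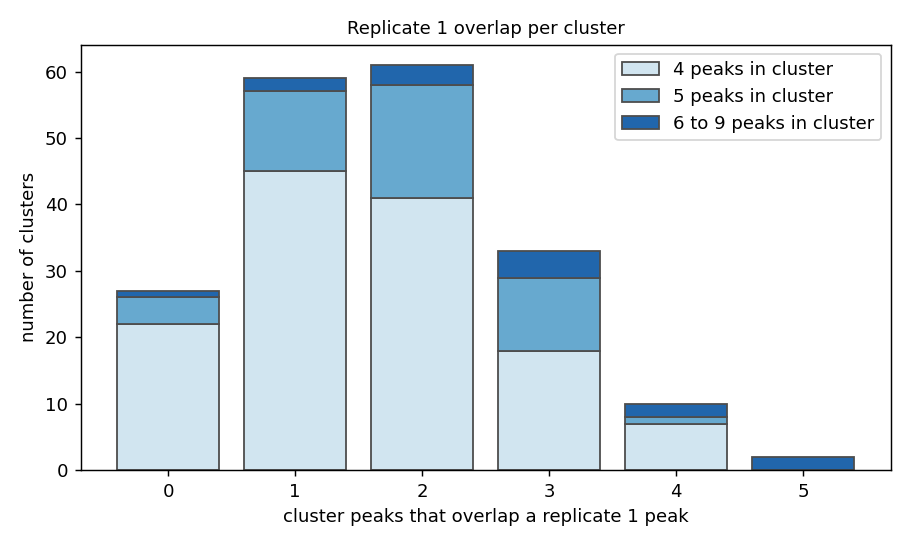
Number of clusters by how many of their peaks overlap a replicate 1 peak, with bars split by cluster size. The highest bars are at 1 and 2 supported peaks, with 59 and 61 clusters, and 12 clusters have 4 or 5.

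Joined by the same rule on its own, replicate 1 gave 22 clusters with 92 peaks, and 12 of these 22 overlapped a replicate 2 cluster. They were CYR61, TCF7L2, TMEM45B, GPRC5A, TCP11L2, FOS, BMF, LIPH, YTHDC1, MIR3143, FAM214B and RALGDS. Of the other 10, SCNN1A, a subunit of the epithelial sodium channel, PMEPA1, an inhibitor of TGF-beta signalling, and NEDD9, an adhesion scaffold, each had 3 supported replicate 2 peaks, below the limit of 4. LDHAL6B had 4 peaks in replicate 1 and 1 in replicate 2. These genes were named after their values were seen.

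LIPH, a phosphatidic acid lipase, had 5 of 6 peaks supported at chr3:185527446-185559203. In genome order the supported peaks scored 6.25, 13.5, 15.2, 19.3 and 16.7 in replicate 2, and 5.09, 7.73, 8.49, 11.9 and 11.7 in replicate 1. Both replicates put the fourth peak, in an intron 3240 bp from the TSS, on top and the promoter peak next. No LIPH peak held TGTTTAC, and 2 held the AP-1 site.

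At RPL13AP20 and GPRC5A (chr12:12870419-12891561), 5 of 7 peaks were supported. GPRC5A encodes an orphan receptor induced by retinoic acid. Its promoter peak and its 5′ UTR peak, 793 bp apart, scored 12.5 and 18.0 in replicate 2 and 8.11 and 7.92 in replicate 1. A pair of intergenic peaks near the pseudogene RPL13AP20, 1713 bp apart, scored 9.37 and 15.8 in replicate 2 and 7.55 each in replicate 1. The cluster thus had a supported pair at each end.

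FOS, a subunit of AP-1, had 4 supported peaks at chr14:75259164-75278809, at -19486, -11286, -1541 and -97 bp from the TSS. Their scores were 29.0, 7.58, 47.6 and 22.9 in replicate 2 and 13.0, 6.98, 20.4 and 16.2 in replicate 1. The third peak was higher than the promoter peak, the fourth, in both replicates, and it alone held TGTTTAC.

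TMEM45B, a transmembrane protein gene, had 4 supported peaks at chr11:129846473-129861938 with scores of 12.6, 31.2, 35.1 and 11.3 in replicate 2 and 6.6, 17.0, 20 and 9.62 in replicate 1. RALGDS, an exchange factor for Ral GTPases, had 4 at chr9:133133783-133161241, with 44.3, 15.3, 11.2 and 10.9 in replicate 2 and 24.1, 9.43, 7.17 and 4.72 in replicate 1. At RALGDS the order of the 4 peaks by score was the same in both replicates, and at TMEM45B the strongest peak and the runner-up were the same while the weaker pair changed places. The leading RALGDS peak, in an intron, held 2 copies of TGTTTAC and an AP-1 site.

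TCF7L2, the Wnt effector, had 4 intronic peaks at chr10:113073844-113094111, of which the files assign 2 to SNORA87. They scored 11.5, 7.29, 45.8 and 15.6 in replicate 2 and 5.85, 8.49, 19.2 and 5.28 in replicate 1. The third peak stood out in both lists, while the second ranked last in replicate 2 and second in replicate 1. TCP11L2 had 4 at chr12:106288438-106302704, where the strongest peaks, 740 bp apart at its promoter, scored 23.1 and 20.8 in replicate 2 and 10.4 and 11.1 in replicate 1.

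BMF, a pro-apoptotic BH3-only protein, had 6 peaks at chr15:40069288-40103594, of which 4 were supported. The strongest was intergenic, 24285 bp from the BMF TSS, at 23.9 in replicate 2 and 11.1 in replicate 1, and it held TGTTTAC. The 3 supported intronic peaks scored 17.7, 15.9 and 14.3 in replicate 2 and 8.3, 7.55 and 8.11 in replicate 1. CYR61, a matricellular target of YAP, had 4 supported intergenic peaks at chr1:85599153-85623399, which scored 5.5, 8.77, 7.58 and 11.9 in replicate 2 and 4.9, 7.17, 6.41 and 4.53 in replicate 1. Their median percentile in replicate 2 was 57.9, close to the 58.9 of all cluster peaks.

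**Figure D4:**
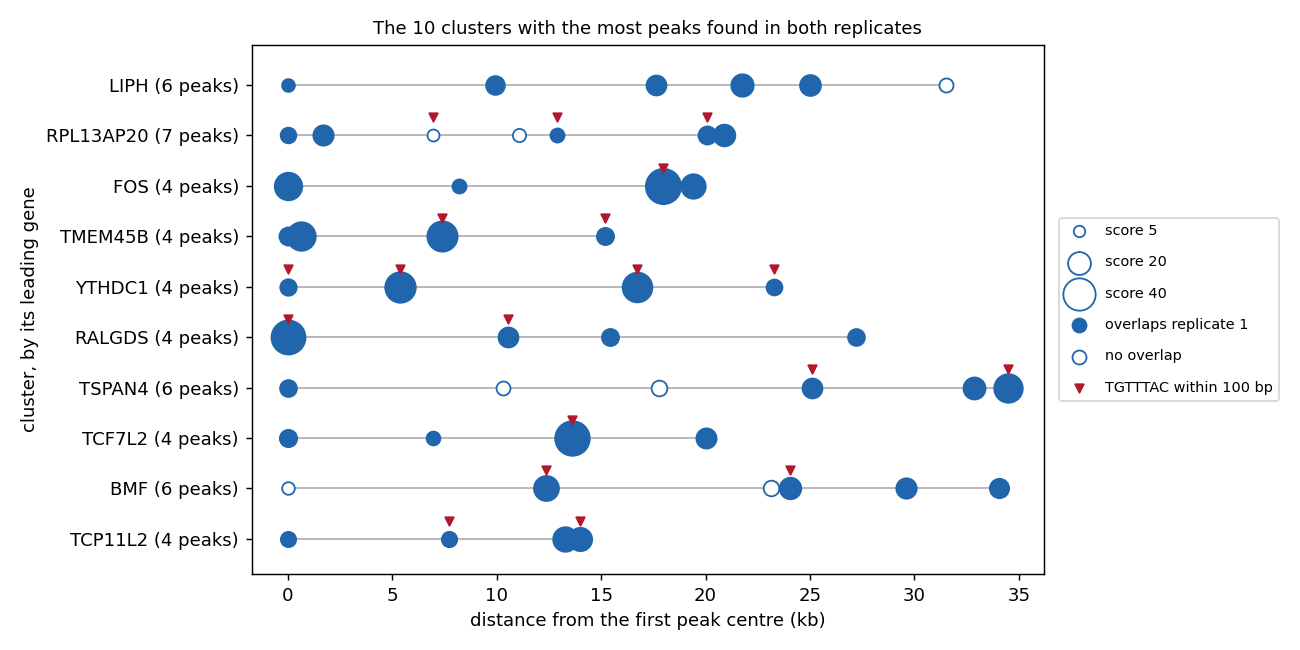
Peaks of the 10 clusters with the most supported peaks, by distance from the first peak centre in kb. Circle area is the replicate 2 score, filled circles overlap a replicate 1 peak, and triangles mark TGTTTAC within 100 bp of the centre. Ties at 4 supported peaks were broken by the number and summed score of replicate 1 peaks, which leaves out ST6GALNAC6 and CYR61. At FOS, TMEM45B, YTHDC1, RALGDS, TCF7L2 and TCP11L2 all 4 circles are filled, and at YTHDC1 all 4 also have a triangle.

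TGTTTAC, searched on both strands within 100 bp of each centre, was in 198 of the 848 cluster peaks (23.3%, 20.6% to 26.3%), against 28.2% of all replicate 2 peaks. Outside clusters it was in 7486 of 26433 (28.3%, 27.8% to 28.9%). The share in clusters was lower by 4.97 percentage points (two-sided Fisher's exact test, p = 0.0015, adjusted p = 0.006 over 4 tests, odds ratio 0.771). It was still well above the 3.07% of equally long windows 2000 bp away from the cluster peaks.

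At equal score decile the difference in TGTTTAC was -5.33 points (p = 0.00065, stratified test), and among peaks outside promoters it was -6.26 points (Fisher's exact test, p = 0.00052). Cluster peaks were richer in G and C, with a median of 49.2% against 46.3% outside. The call was lost at equal GC decile (-2.91 points, stratified p = 0.052), and by the exact Fisher test with 1 peak per cluster (-4.88 points, p = 0.15), in clusters of 5 or more peaks (-1.60 points, p = 0.57), among supported peaks (-3.56 points, p = 0.2) and in the higher-scoring part of the list (-5.11 points, p = 0.099). In the clusters that the same rule gave in replicate 1, the difference turned to 0.986 points (Fisher's exact test, p = 0.82). The strongest peak of each cluster held TGTTTAC in 71 of 192 cases (37.0%, 30.5% to 44%), and the other cluster peaks in 127 of 656 (19.4%, 16.5% to 22.6%). This split too was made by score and is a description. Outside clusters, TGTTTAC was in 43.8% of the highest score decile and 25.2% of the fifth. Among cluster peaks it was in 45.6% of the highest decile and 15.8% of the fifth. The cluster share was also slightly above the outside share in the ninth decile (30.8% against 29.7%), and it was below in every lower decile.

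The position of the heptamer did not set cluster peaks apart. Cluster peaks held 207 copies, 106 on the + strand and 101 on the other, at a median of 19 bp from the centre, which was also the median outside. Of the copies, 60.4% in clusters and 59.5% outside were within 25 bp of the centre. Only 9 cluster peaks held more than 1 copy.

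Per cluster, 126 of 192 had at least 1 peak with TGTTTAC, 53 had 2 or more and 16 had 3 or more, while 66 had none. TXNIP, a thioredoxin-binding protein that limits glucose uptake, had it in 3 of 4 peaks at chr1:145996562-146013011. Its promoter peaks, 682 bp apart, scored 62.8 and 17.8 in replicate 2 and 29.2 and 8.68 in replicate 1, and the distal peaks, at 5.95 and 3.72, had no partner. LINC02518 had 4 copies in 3 of 4 intergenic peaks at chr6:113442045-113457434. Its peaks scored 3.57 to 9.52, at a median percentile of 31.7, and 2 of the 4 were supported. The heptamer-rich clusters thus included a very strong promoter pair as well as weak distal peaks.

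The AP-1 site TGACTCA, or TGAGTCA on the opposite strand, is the binding site of FOS and JUN dimers and does not overlap TGTTTAC in its letters. It was in 139 cluster peaks (16.4%, 14.1% to 19%), against 16.6% of all replicate 2 peaks and of those outside clusters. The difference was -0.194 points (two-sided Fisher's exact test, p = 0.93, adjusted p = 0.93, odds ratio 0.986), so none was detectable at these counts. In the windows 2000 bp away from cluster peaks it was in 3.71%. At least 1 AP-1 site occurred in 102 clusters, 70 clusters had both motifs, and 34 had neither. Of the 848 peaks, 31 held both (3.66%, against 3.65% of all replicate 2 peaks) and 542 neither.

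**Figure D5:**
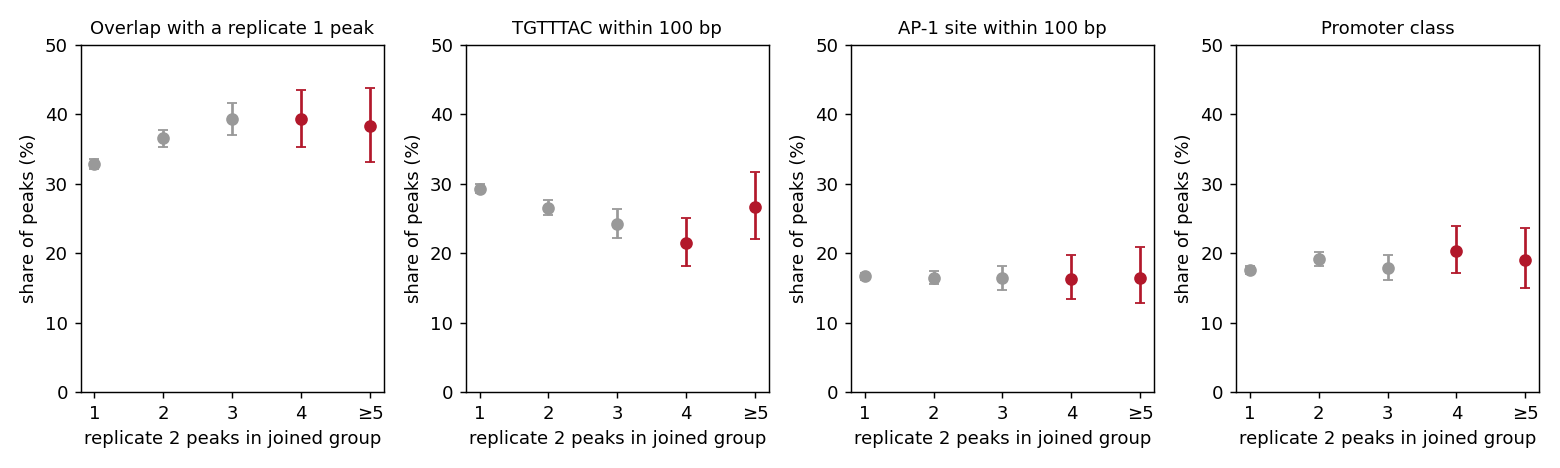
Share of replicate 2 peaks, in percent, with replicate 1 overlap, TGTTTAC, the AP-1 site or the promoter class, by the number of peaks in the joined group. Bars are Wilson 95% intervals, and groups of 4 and of 5 or more, in red, are the clusters. TGTTTAC falls from 29.3% of lone peaks to 21.4% in groups of 4 and stands at 26.6% in larger ones, while the AP-1 site stays between 16.4% and 16.7%.

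The shares were also counted by the size of the joined group. TGTTTAC was in 29.3% of lone peaks, 26.6% of peaks in pairs, 24.2% in groups of 3, 21.4% in clusters of 4 and 26.6% in larger clusters. Replicate 1 support was 32.8%, 36.5%, 39.2%, 39.3% and 38.3% in the same order. For neither feature did groups of 4 stand apart from groups of 3 beyond the intervals.

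Promoter peaks, as classed in the files, numbered 168 of 848 in clusters (19.8%, 17.3% to 22.6%), against 18.0% of all replicate 2 peaks and 17.9% outside clusters. The difference of 1.87 points was not significant (two-sided Fisher's exact test, p = 0.17, adjusted p = 0.23, odds ratio 1.13). With GENCODE transcript starts in place of the files' classes it was 4.68 points (Fisher's exact test, p = 0.0026), and at equal GC decile it was -2.59 points (stratified p = 0.028), so the direction depended on the setting. Cluster peaks lay closer to genes, at a median of 9026 bp from the nearest TSS against 20850 bp outside. Within 10000 bp of a TSS were 52.5% of cluster peaks and 37.4% of the others. These distances are not independent of the choice of closely spaced peaks and were not tested.

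By class, 44.7% of cluster peaks were intronic (40.5% outside) and 29.1% intergenic (36.7% outside). LINE elements held 5.43% of cluster peaks and 9.52% of the others, and LTR elements 4.36% and 6.45%. Clusters fell into 99 with a promoter peak and 93 without. Those with one had a median GC content of 54.7% and AP-1 sites in 13.2% of peaks, and those without had 45.3% and 19.9%. Their TGTTTAC shares were 21.6% and 25.3%, and their supported shares 42.5% and 35.1%. By the split itself, only the first kind holds the 168 promoter peaks. Those had a median GC content of 64.2%, AP-1 sites in 3.57% and TGTTTAC in 13.1%. The other 680 cluster peaks had 46.3%, 19.6% and 25.9%. The values of the 2 kinds of cluster are thus not independent of the split and were not tested. All peaks of a cluster were assigned to 1 gene in 112 clusters, 59 clusters lay inside the body of 1 coding gene, and 15 named 4 or more genes.

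Chromosome 1 had 23 clusters, chromosome 6 had 15 and chromosome 9 had 14. As a share of a chromosome's replicate 2 peaks, cluster peaks were 5.38% on chromosome 19, 5.34% on chromosome 9 and 5.13% on chromosome 15, and 0.602% on chromosome 13. The share on chromosome 19 was higher than on any other chromosome and that on chromosome 13 was the lowest among those with a cluster. Input signal and copy number were not analysed here, and their part in these shares was not tested.

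The files assign cluster peaks to 323 genes, which is 2.33% of the 13887 genes with a replicate 2 peak. Since a cluster takes several peaks, a second share was counted over genes with many peaks: of the 1664 genes with 4 or more replicate 2 peaks, 140 (8.41%) had a cluster peak. No list of related genes was tested, and the second share rests on few genes per list.

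Of the YAP and TEAD targets and Hippo pathway members, 4 of the 20 with a replicate 2 peak had a cluster peak: CYR61, TEAD1, PTPN14 and MYOF. TEAD1, the DNA-binding partner of YAP, had 5 peaks at chr11:12671498-12693877, with scores of 15.0, 12.8, 11.7, 11.7 and 16.4, of which the first 3 were supported. PTPN14, a phosphatase that restrains YAP, had 5 intronic peaks at 4.46 to 18.9 with 2 supported, and MYOF, a ferlin, had 4 intronic peaks at 6.69 to 18.1 with 3 supported. All 4 genes were also among the 8 of this list with 4 or more replicate 2 peaks. AP-1 family genes in clusters were 3 of 15, FOS, FOSB and MAFK, a small Maf protein, and 1 of the 2 with 4 or more replicate 2 peaks. FOSB had 3 peaks in its cluster at 13.1, 6.39 and 6.54, of which only the first was supported.

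Of 15 cancer long noncoding RNAs, 3 had a cluster peak, MALAT1, LINC-PINT and LINC00673, and all 3 were among the 7 with 4 or more replicate 2 peaks. MALAT1, an abundant nuclear RNA, lay in a cluster of 5 peaks at chr11:65472163-65507797 that scored 17.8, 10.6, 11.9, 11.6 and 12, and only the first, at -25447 bp from the TSS, was supported. Among nuclear receptors, NR1D1, a repressor in the circadian clock, led a cluster of 5 peaks at chr17:40099297-40113894, with scores of 27.5, 18.4, 12.9, 18.9 and 15.6. Its intronic peak and its promoter peak were the supported ones, at 13.8 and 10.8 in replicate 1.

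The other lists had at most 2 genes in clusters. TGF-beta and SMAD genes gave 2 of 21 (SMAD3 and TGFBR3, a coreceptor), and epithelial genes 2 of 21 (ELF3 and JUP, the junction protein plakoglobin). Among those with 4 or more replicate 2 peaks, these lists gave 2 of 8 and 1 of 6. A single gene came from each of the forkhead factors (FOXN3, of 22), the EGF receptors and ligands (ERRFI1, an EGFR inhibitor, of 14), the insulin and mTOR brakes (SESN2, an inhibitor of mTORC1, of 24), the MYC network (MNT, a MYC antagonist, of 19), MAPK feedback (DUSP16, of 14) and the NF-kB and interferon genes (IRF1, of 20). Among those with 4 or more replicate 2 peaks, these lists gave, in the same order, 0 of 7, 1 of 6, 0 of 8, 1 of 2, 0 of 5 and 1 of 4. MNT had 5 peaks at 4.76 to 25.9, and its 2 promoter peaks were supported. The IRF1 and ERRFI1 clusters had 4 intergenic peaks each, at 8.77 to 14.9 and at 5.5 to 7.14, and none was supported.

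No cluster peak was assigned to a gene of 8 lists. Among them were a list of autophagy and lysosome genes (24 with a replicate 2 peak) and the unfolded protein response (15). The stemness genes (10) and the markers of other cell types (12) were 2 more. In the same order, 4, 1, 2 and 4 genes of these lists had 4 or more replicate 2 peaks. With cluster peaks at 2.33% of all genes, and 8.41% of those with many peaks, lists this short would often hold none. The absence of these genes is therefore not read as a result and was not tested. The lists do not hold every gene of their kind. The lysosomal genes TPP1 and SCARB2 and the V-ATPase gene ATP6V0C, which are on none of the 8 lists, had cluster peaks. SYVN1, a ubiquitin ligase gene of ER protein degradation, was on none of them either. Its supported promoter peak scored 18.3 in replicate 2 and 13.4 in replicate 1. A transcript start of POU5F1 lay inside the HCG27 cluster, but no cluster peak was assigned to that gene. These genes were named after their values were seen. Another of the 8 lists held 5 of the FOXK2 targets named in the study, ERN1, KLF9, ATXN1, IGF1R and KDM3A. All 5 had replicate 2 peaks. ERN1, the sensor of the unfolded protein response, had 3 such peaks that joined into a group of 3, with 1 supported. KLF9 had 6 peaks and ATXN1 had 12, in groups of at most 3, just below the limit of 4. Over all lists, 22 of 341 genes (6.45%) had a cluster peak, and 16 of the 100 with 4 or more replicate 2 peaks (16.0%). For all genes the same shares were 2.33% and 8.41%. The lists were chosen with earlier results of these data known, so the higher pooled shares are a description only.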

How the data were processed

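The material was 1 FOXK2 ChIP-seq peak list per biological replicate of OVCAR5 cells, 2 in all. Per the submitters' processing notes and the study's methods, the authors aligned reads to hg38 with Bowtie2 2.2.6 and called and annotated peaks with HOMER 4.10. The deposited lists give each peak's position, a score, a focus ratio (the fraction of tags on the expected side of the centre, as the authors' software computed it; median 0.754 in clusters and 0.755 outside) and the nearest TSS, whose gene symbols were used as given. Peak width was 210 bp in the replicate 1 list, and replicate 2 peaks were 256 bp wide. Read depth is not part of the lists and was not analysed here, so the precision given is that of peak counts. No column of another series was present.

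Peaks were sorted and joined as described above. Members and gene lists were chosen with earlier results of these data known. Shares have Wilson 95% intervals, which cover counting error only, and were compared with two-sided Fisher's exact tests, adjusted by Benjamini-Hochberg over 4 tests. Stratified differences used the Mantel-Haenszel method over deciles. Motifs were searched in hg38 on both strands, and every printed sequence comes from that genome. GENCODE 44 gave transcript starts, with promoters from 1000 bp upstream to 100 bp downstream. Replicates are separate samples per the labels, and no test between conditions was possible.

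Genes named were those of the 12 clusters with the most peaks, the 10 with the most supported peaks, the 5 with the most TGTTTAC peaks, and list genes with a cluster peak, except 1 that is not reported here. Ties were broken by summed score, by replicate 1 peaks and by TGTTTAC copies, and genes named by other routes are said to be chosen after seeing values. A cluster is called by the gene its peaks name most often, with ties going to the higher-scoring peak. Alternatives were other joining distances, cluster sizes, motif windows and overlaps, strata of score and GC, subsets of peaks, and each replicate alone. On simulated data with known answers, the joining, overlap and motif steps recovered 100% of 5141 simulated peaks and 2000 windows. The simulated windows could hold no motif but the planted one, and simulated partner peaks always overlapped. This checked that the steps ran as written, not how they behave on data like these. The input libraries and the RNA-seq data were not used. Python 3.11.15, numpy 2.4.6, scipy 1.17.1, pandas 2.3.3, statsmodels 0.14.6 and matplotlib 3.10.9 were used.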

Additional observations from a re-analysis of the deposited data

How the results depend on the processing

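The size of the set followed the joining rule closely. With a joining distance of 5 kb there were 2 clusters with 8 peaks, so that every test with it rested on 8 peaks, and with 25 kb there were 755 with 3651. Groups of 3 or more gave 762 clusters with 2558 peaks, groups of 5 or more 59 with 316, and the higher-scoring part of the list 54 with 235. Without replicate 2, the rule run on replicate 1 gave 22 clusters with 92 peaks. Clusters with 4 or more replicate 1 peaks numbered 14, and 0 and 91 with 5 kb and 25 kb. Stratification by GC decile and the restriction to supported peaks were chosen after seeing the data.

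Of 78 alternative values, 39 kept their direction and their side of the threshold or, for counts, stayed within 1.5 times the main count. The values are percentage points of cluster peaks minus other peaks, with p from a two-sided Fisher's exact test, or stratified over deciles. Replicate 1 support (4.82) was -9.25 at 5 kb, 4.095 in clusters of 5 or more (exact p = 0.14), -1.81 in the higher-scoring part of the list, -0.240 with the first peak of each cluster, -0.830 at equal score decile and 7.75 with the replicates' roles exchanged (p = 0.092). TGTTTAC (-4.97) was 9.34 at 5 kb, -1.60 in clusters of 5 or more, -5.11 in the higher-scoring part (exact p = 0.099), -4.88 with first peaks (p = 0.15), -2.91 at equal GC decile (p = 0.052), -3.56 among supported peaks (p = 0.2) and 0.986 without replicate 2. The AP-1 site (-0.194) was 8.42 at 5 kb, 0.786 at equal GC decile, 0.0807 outside promoters, 1.18 among supported peaks and 4.25 without replicate 2. The promoter share (1.87) was -18.0 at 5 kb, 1.83 at 25 kb (exact p = 0.0078), -0.752 with first peaks, -2.59 at equal GC decile (p = 0.028), -1.32 among supported peaks, 4.68 with GENCODE starts (p = 0.0026) and -2.17 without replicate 2. The cause of these changes was not tested, except that fewer peaks entered several of them. Leaving out replicate 1 does not alter which peaks are in clusters, but it removes every value that rests on support. No paired analysis was possible because only the FOXK2 peak lists were used.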
